A study of Mus musculus with 64 samples.

Results

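The RNAs described here are 6 noncoding RNAs that work in or pass through the nucleus: Malat1, Neat1, Rn7sk, Rmrp, Rpph1 and Terc. They were picked by gene name in the deposited gene table, and they were chosen by their known abundance and by their levels in these same counts, so those levels and shares are given as a description and were not tested. The 6 names made up 6 of 55117 gene names and covered 8 of 55385 gene identifiers, because Rmrp and Terc each have 2 identifiers. Counts were found for 4 of the 6 names, Malat1, Neat1, Rn7sk and Rpph1.

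The libraries came from mammary tumors of 4 female mice, with 2 tumors from each mouse, and every mouse carried the PyMT oncogene (PyVT+), which is expressed in the mammary epithelium and gives mammary tumors. The heterozygous KO mouse G164 had 1 floxed and 1 wild-type Abi1 allele with MMTV-Cre (Abi1 fl/wt Cre+), and its control G144 had the same alleles without Cre (Abi1 fl/wt Cre-). The homozygous KO mouse G174 had 2 floxed alleles with MMTV-Cre (Abi1 fl/fl Cre+), and its control G184 had 2 floxed alleles without Cre (Abi1 fl/fl Cre-). ABI1 is an adaptor of the WAVE complex, which drives branching of actin filaments. The paper describes MMTV-Cre as specific to the mammary gland, and whether other cells of a tumor kept their alleles was not tested. Each genotype was 1 mouse. A difference between genotypes therefore cannot be told apart from a difference between mice. The p-values of tests on tumors measure only the spread between tumors of the same mouse, pooled over the 4 mice. Only the comparison of Cre-positive with Cre-negative mice, on counts summed per mouse, had mice as its replicates. The mice G164 and G184 were older than G174 and G144 according to the study's animal records.

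The 8 tumors held 50346075 to 69264893 reads counted to genes, from 104928094 to 140338804 reads in all. Abi1, the targeted gene, had 63.1 and 66.7 CPM (gene counts scaled to a common library size) in G164 tumors against 111 and 130 CPM in G144 tumors, and 8.93 and 6.47 CPM in G174 tumors against 114 and 122 CPM in G184 tumors. Abi1 fell in both comparisons (log2 change -0.89 ± 0.16 SE, adjusted p = 0.0362, and -3.94 ± 0.18 SE, adjusted p = 0.000297, edgeR's quasi-likelihood test with Benjamini-Hochberg adjustment over all genes). The 8 mammary epithelial markers were detected in every tumor, with a summed level of 3778 to 4617 CPM. Markers of skeletal muscle summed to 272 CPM in tumor 3 of G164 and 217 CPM in tumor 8 of G144, against 1.26 to 2.36 CPM in the other 6 tumors.

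Malat1 and Neat1 are long RNAs that stay in the nucleus. Malat1 gathers in nuclear speckles, where splicing factors are stored, and Neat1 is the scaffold around which paraspeckles form. Rn7sk, the 7SK RNA, holds the kinase P-TEFb in an inactive particle and so limits the release of paused RNA polymerase II. Rpph1 is the catalytic RNA of RNase P, which trims the leading end of precursor transfer RNAs, and Rmrp is the related RNA of RNase MRP, which cuts precursor ribosomal RNA. Terc carries the template from which telomerase adds telomere repeats. RNA polymerase III makes Rn7sk, Rmrp and Rpph1 from promoters that lie upstream of the gene, and RNA polymerase II makes the others.

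The start of Rn7sk is printed because this is the most counted RNA of the series and this end carries the element that binds HEXIM proteins. It covers bases 1 to 100 of 331 (GRCm38, chr9:78175534-78175633, minus strand, GENCODE M21), and the capitals mark GATC, a palindrome that reads the same on both strands, searched on the RNA strand.
Rn7sk: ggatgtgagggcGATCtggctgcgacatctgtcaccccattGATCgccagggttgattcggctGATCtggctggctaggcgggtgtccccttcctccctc
GATC occurred 3 times in Rn7sk, at bases 13, 42 and 64, all within this stretch. Of 139316 annotated transcripts with at least 100 bases, 0.323% held GATC 3 or more times in their first 100 bases.

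Terc and Rmrp are printed because neither had a count. For Terc, bases 1 to 100 of 423 are shown (GRCm38, chr3:96414760-96414859, minus strand, GENCODE M21), with the template CTAACCC in capitals.
Terc: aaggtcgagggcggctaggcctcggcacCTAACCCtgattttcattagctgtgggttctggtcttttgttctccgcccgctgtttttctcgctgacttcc
CTAACCC occurred 1 time in the whole Terc transcript, at bases 29 to 35, and was searched on the RNA strand only. Of the same transcripts, 0.308% held it in their first 100 bases. The longer of the 2 Rmrp entries is shown whole (GRCm38, chr4:43492783-43493063, minus strand, 281 bases), and the capitals mark its only bases outside the shorter entry.
Rmrp: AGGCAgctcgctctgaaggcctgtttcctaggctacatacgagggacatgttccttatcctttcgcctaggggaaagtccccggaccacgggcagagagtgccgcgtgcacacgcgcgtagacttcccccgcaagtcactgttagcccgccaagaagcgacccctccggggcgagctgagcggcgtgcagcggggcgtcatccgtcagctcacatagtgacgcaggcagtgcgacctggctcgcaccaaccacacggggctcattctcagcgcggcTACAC
The shorter Rmrp entry lies wholly inside the longer one and shares all its 271 bases with it, which leaves 5 unshared bases at each end.

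The ends of Rpph1 are printed because most of its length belongs to 2 genes in the annotation. Bases 1 to 120 (GRCm38, chr14:50807648-50807767, minus strand) and 240 to 319 (GRCm38, chr14:50807449-50807528) of its 319 bases are shown, and the capitals mark bases that lie in no exon of the same-strand gene Ccnb1ip1, which encodes a meiotic crossover factor.
Rpph1 start: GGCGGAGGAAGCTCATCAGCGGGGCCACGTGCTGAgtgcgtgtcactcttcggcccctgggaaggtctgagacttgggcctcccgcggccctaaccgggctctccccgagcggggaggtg
Rpph1 end: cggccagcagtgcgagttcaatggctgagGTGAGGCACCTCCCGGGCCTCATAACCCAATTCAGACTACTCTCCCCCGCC
Ccnb1ip1 exons covered 233 of the 319 bases, and the unshared bases were the first 35 and the last 51.

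Rn7sk took the largest share of all gene counts in these tumors and Malat1 the next largest, by the mean over the 8 tumors. Rn7sk lies on chromosome 9 at 78175303 to 78175633 on the minus strand (GRCm38) as a single exon of 331 bases that overlaps no other annotated gene. Its share was 1.96% and 2.11% of gene counts in G164 tumors 3 and 6, against 2.05% and 2.47% in G144 tumors 6 and 8. It was 1.67% and 1.99% in G174 tumors 1 and 6, against 1.96% and 2.50% in G184 tumors 6 and 9. The mean share was lower in the KO mouse of both pairs, and the shares of the KO and control tumors overlapped in both. As the most counted gene, Rn7sk ranked first in 6 of the 8 tumors and below Malat1 in tumor 3 of G164 and tumor 6 of G184. The counting error of such shares was small: the 95% Wilson interval of the 1.96% in tumor 3 of G164 ran over 1.95% to 1.96%, and intervals here cover counting error only.

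Malat1 lies on chromosome 19 at 5795690 to 5802672 on the minus strand as a single exon of 6983 bases. Its share was 2.03% and 1.96% of gene counts in G164 tumors against 1.41% and 1.43% in G144 tumors. In the homozygous pair it was 1.56% and 1.33% in G174 tumors against 2.21% and 1.74% in G184 tumors. Malat1 was thus higher in KO tumors of the heterozygous pair and lower in KO tumors of the homozygous pair, with no overlap between mice in either. As bulk RNA was measured, fewer cells of a type and less RNA per cell cannot be told apart for any of these values.

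Neat1 lies on the same chromosome and strand at 5824708 to 5845478, a single exon of 20771 bases. Its share was 0.170% and 0.135% in G164 tumors against 0.103% and 0.100% in G144 tumors, and 0.178% and 0.0935% in G174 tumors against 0.138% and 0.0986% in G184 tumors. Of the 8 tumors, the 2 of G174 held both the highest and the lowest Neat1 share, 1.91-fold apart. The tumors of G144 lay 1.03-fold apart in Neat1, those of G164 1.26-fold and those of G184 1.40-fold.

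**Figure D1:**
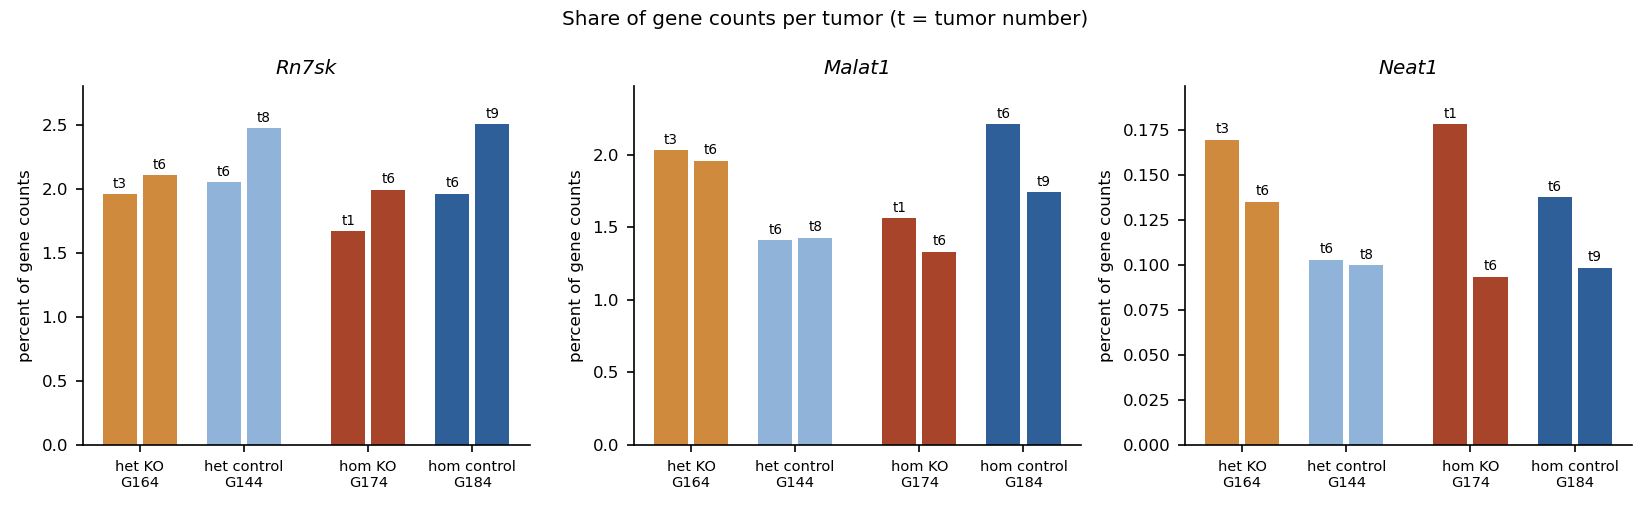
Percent of gene counts (y axis, from 0) taken by Rn7sk, Malat1 and Neat1 in each of the 8 tumors, with the 2 tumors of each mouse side by side and t giving the tumor number. Malat1 stands at 1.33 to 1.56% in the G174 and G144 tumors and at 1.74 to 2.21% in the G164 and G184 tumors, and the Neat1 bars of G174 are the farthest apart.

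All 6 names together took 4.16% and 4.20% of gene counts in G164 tumors against 3.57% and 4.01% in G144 tumors, and 3.42% and 3.42% in G174 tumors against 4.31% and 4.35% in G184 tumors. Per length, the order of the 3 abundant RNAs was wider apart: Rn7sk had 50523 to 75663 CPM per kilobase, Malat1 1909 to 3164 and Neat1 45.0 to 85.8. These values divide by all annotated exonic bases of each gene, and which part of a gene its reads fell on was not analysed. Rn7sk was counted 0.888 to 1.73 times as often as Malat1, with its lowest ratio in tumor 6 of G184 and its highest in tumor 8 of G144. Malat1 was counted 8.78 to 17.7 times as often as Neat1, lowest in tumor 1 of G174 and highest in tumor 9 of G184. Rn7sk and Neat1 ran in opposite directions over the 8 tumors (Pearson's r = -0.78 and Spearman's rho = -0.76 of log2 CPM), and Malat1 and Neat1 in the same direction (r = 0.52, rho = 0.60). These coefficients describe 8 tumors of 4 mice that share their library totals, and no test was made of them.

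The sequencing lanes repeated these shares closely. Each tumor was sequenced on 4 lanes in each of 2 runs, and the share in run 2 over that in run 1 was 1.006 to 1.012 for Rn7sk, 0.990 to 0.995 for Malat1 and 0.990 to 1.01 for Neat1. Between lanes of a run, the variance of the Malat1 share was 0.354 to 2.46 times that of counting alone, that of Neat1 0.550 to 1.89 times, and that of Rn7sk 2.46 to 5.90 times. The reads of the 3 RNAs fell on the annotated strand: 0.140% of stranded Malat1 counts, 0.0993% of Neat1 and 0.0814% of Rn7sk lay on the other strand, against 4.76 to 6.80% over all genes of a tumor. Counted without strand, Malat1 had 7613057 counts, 11.4% below the 8592542 counted with strand, and Gm37376, a gene of 453 bases, lies wholly inside Malat1 on the opposite strand. Relative to counting without strand, the stranded count dropped by 617 for Neat1 and dropped by 8564 for Rn7sk.

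Rmrp and Terc were listed at 0 under all 4 of their identifiers, in all 64 lane files and with and without strand. A count of 0 allows a share of up to 4.33e-06 to 5.96e-06% of gene counts per tumor (3 counts), a limit that covers counting error and does not hold for reads that were set aside because 2 genes claimed them. STAR's gene counting takes a read only where it falls on a single gene, and 1.48 to 2.09% of reads per tumor were set aside as ambiguous. For Rmrp, the annotation leaves the shorter entry no base of its own and the longer entry 10. Of 763 genes in GENCODE M21 whose every exonic base is shared with another gene on the same strand, 762 (99.9%) were at 0, against 28.2% of 51191 genes with no shared base. Of 2533 genes that share only some of their exonic bases, as the longer Rmrp entry does, 14.7% were at 0. For Terc, 1 identifier covers 423 bases on chromosome 3 at 96414437 to 96414859 and overlaps no other gene in GENCODE M21. The other identifier was not found in GENCODE M21, so whether the 2 Terc entries overlap in the annotation used for counting was not analysed. How many reads came from either RNA cannot be read from these counts.

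Rpph1 was close to the floor. It had 24 and 33 counts in G164 tumors against 47 and 96 in G144 tumors, and 91 and 78 in G174 tumors against 47 and 50 in G184 tumors. In CPM scaled by the trimmed mean of M-values (TMM), that was 0.457 and 0.529 against 0.716 and 1.72, and 1.39 and 1.17 against 0.663 and 0.777. Its 466 counts in all set it far below the other counted members, and 233 of its 319 bases could not be counted to a single gene under the annotation used here.

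The question of the heterozygous comparison is which RNAs differ when 1 of the 2 Abi1 alleles is floxed and Cre is present. None of the 4 counted members passed the adjusted threshold of 0.05, against 4.01% of all 22187 genes tested, and 2 of the 4 had an unadjusted p under 0.05, as did 5607 of all genes. Malat1 averaged 19267 ± 334 CPM in G164 tumors and 14447 ± 155 CPM in G144 tumors (SD, n = 2 each). Its log2 change was 0.42 ± 0.16 (SE, 95% interval 0.04 to 0.80, adjusted p = 0.169, edgeR). Neat1 averaged 1471 ± 223 CPM against 1033 ± 20.1 CPM, a log2 change of 0.51 ± 0.30 (SE, 95% interval -0.19 to 1.21, adjusted p = 0.331). Rn7sk averaged 19622 ± 1192 CPM in G164 tumors and 23035 ± 3053 CPM in G144 tumors, with a log2 change of -0.23 ± 0.20 (SE, 95% interval -0.71 to 0.25, adjusted p = 0.517). Rpph1 had the largest estimate, -1.29 ± 0.43 (SE, 95% interval -2.30 to -0.28, adjusted p = 0.125), which was -0.54 without tumor 8 of G144 and -1.81 without tumor 6 of G144. For all 4 the scaled CPM of G164 tumors did not overlap those of G144 tumors, as was true of 60.1% of all genes tested. DESeq2's Wald test called Malat1 in this comparison (adjusted p = 0.0359).

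The homozygous comparison asks the same of tumors with both alleles floxed. Again 0 of the 4 counted members passed the threshold in edgeR, against 13.1% of all genes, and 1 had an unadjusted p under 0.05, as did 7017 of all genes. Malat1 averaged 14745 ± 1672 CPM in G174 tumors and 19755 ± 2600 CPM in G184 tumors (SD, n = 2 each). Its log2 change was -0.42 ± 0.16 (SE, 95% interval -0.80 to -0.04, adjusted p = 0.126), and DESeq2's Wald test called it (adjusted p = 0.0225). Rn7sk averaged 18657 ± 2316 CPM against 22455 ± 4636 CPM, a log2 change of -0.27 ± 0.20 (SE, 95% interval -0.75 to 0.21, adjusted p = 0.404). Neat1 averaged 1383 ± 610 CPM against 1180 ± 235 CPM, a log2 change of 0.23 ± 0.30 (SE, 95% interval -0.47 to 0.93, adjusted p = 0.634). Without tumor 1 of G174 the Neat1 estimate turned to -0.31, so that tumor set its sign. Rpph1 had a log2 change of 0.83 ± 0.41 (SE, 95% interval -0.14 to 1.80, adjusted p = 0.215). Malat1 and Rpph1 were the 2 of 4 members whose tumors did not overlap between these mice, against 59.8% of all genes.

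Malat1 and Rpph1 had estimates of opposite sign in the 2 pairs of mice, none of which passed alone in edgeR, and the difference between the pairs passed the test for both. That difference sets the younger mice G174 and G144 against the older mice G164 and G184. A difference in response to Abi1 loss therefore cannot be told apart from a difference by age. Malat1's homozygous change was lower than its heterozygous change by a log2 value of -0.84 ± 0.23 (SE, 95% interval -1.37 to -0.30, adjusted p = 0.0375). Rpph1's was higher by 2.12 ± 0.59 (SE, 95% interval 0.72 to 3.52, adjusted p = 0.0406). These were 2 of the 4 counted members, against 25.1% of all genes, of which 13.1% were lower and 12% higher. Leaving out any tumor but tumor 1 of G174 ended the Malat1 call (adjusted p = 0.0533 to 0.131), while its value stayed between -0.98 and -0.65, and leaving out any but tumor 6 of G144 ended that of Rpph1 (adjusted p = 0.0594 to 0.112), whose value was 1.36 without tumor 8 of G144. Each sequencing run alone also ended the Rpph1 call (adjusted p = 0.0523 in run 1 and 0.137 in run 2). Rn7sk and Neat1 differed by -0.04 ± 0.29 (95% interval -0.71 to 0.64) and -0.28 ± 0.42 (95% interval -1.27 to 0.71), and neither passed.

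**Figure D2:**
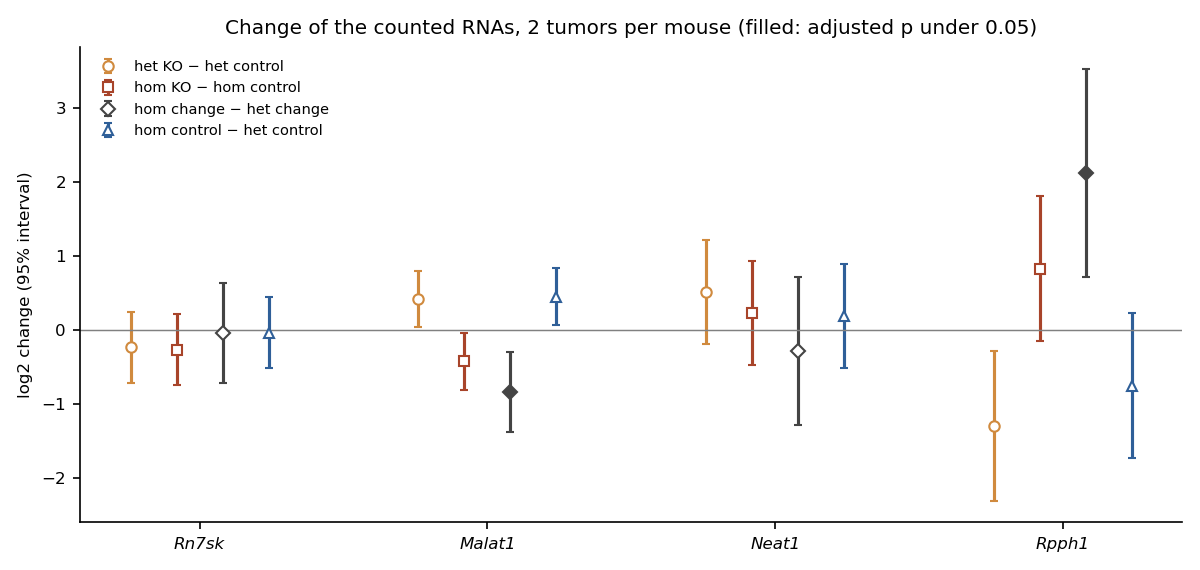
Log2 change (y axis) of the 4 counted members, with 95% intervals, for the heterozygous pair, the homozygous pair, the difference between the pairs and the 2 controls, from 2 tumors per mouse. Filled points passed the adjusted threshold: only the difference between pairs for Malat1 (-0.84) and Rpph1 (2.12) is filled.

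The 2 controls, which both lack Cre, were compared as a measure of how far mice differ without a deletion, and for Malat1 the estimate was as large as in the KO comparisons. The log2 change of the homozygous control G184 against the heterozygous control G144 was 0.45 ± 0.16 for Malat1 (SE, 95% interval 0.07 to 0.83, adjusted p = 0.109), with no overlap of tumors, as for 61.4% of all genes. Those of Neat1 (0.19 ± 0.30), Rn7sk (-0.04 ± 0.20) and Rpph1 (-0.75 ± 0.41) did not pass either, so that edgeR called 0 of 4 members against 12.6% of all genes, with 1 at an unadjusted p under 0.05, as were 7009 of all genes. DESeq2's Wald test called Malat1 here as well (adjusted p = 0.0144). With counts summed per mouse, the 2 Cre-positive mice against the 2 Cre-negative mice gave log2 changes of 0.36 ± 0.18 for Neat1, -0.23 ± 0.24 for Rn7sk, -0.00 ± 0.30 for Malat1 and -0.08 ± 0.60 for Rpph1 (SE). No member passed or had an unadjusted p under 0.05, and edgeR called 0% of the 23281 genes tested there, with 191 genes at an unadjusted p under 0.05. DESeq2 called 22 genes in that comparison, none of them a member.

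Markers of leukocytes and of adipocytes were high in the same tumors as Malat1. The 8 leukocyte markers summed to 277 and 306 CPM in G164 tumors against 123 and 155 CPM in G144 tumors, and to 122 and 130 CPM in G174 tumors against 304 and 365 CPM in G184 tumors. Of the 8, 3 rose and 0 fell in the heterozygous comparison, and 0 rose and 5 fell in the homozygous one, against 4.01% and 13.1% of all genes called in either direction. Between the controls, 5 of the 8 were higher in G184 than in G144, against 12.6% of all genes, so the split was also present between mice without Cre. Ptprc, which encodes CD45, the surface phosphatase of leukocytes, had a log2 change of 1.39 ± 0.11 (SE, adjusted p = 0.0044) and of -1.78 ± 0.11 (SE, adjusted p = 0.000818). The 6 adipocyte markers summed to 45.2 and 109.6 CPM in G164 tumors against 25.3 and 37.1 CPM in G144 tumors, and to 30.0 and 18.5 CPM in G174 tumors against 70.9 and 60.3 CPM in G184 tumors. Of the 8 fibroblast markers, 2 rose and 0 fell in the heterozygous comparison, and 0 rose and 1 fell in the homozygous one. The list medians were log2 changes of 0.94 and -0.15, and 2 of the 8 were positive in the homozygous comparison. The 1 that fell was Dcn, which encodes the matrix proteoglycan decorin. Dcn averaged 175 ± 17.9 CPM in G164 tumors against 63.8 ± 5.99 CPM in G144 tumors (SD, n = 2 each). In the homozygous pair Dcn averaged 39.99 ± 10.8 CPM in G174 tumors against 163 ± 66.8 CPM in G184 tumors. Of the 8 mammary epithelial markers, 0 rose and 1 fell in the heterozygous comparison, and 2 rose and 0 fell in the homozygous one. Those with a positive log2 change numbered 2 and 4. Cldn4 was called in both (-0.59, adjusted p = 0.0478, and 0.58, adjusted p = 0.0276, edgeR) and between the controls (-0.79, adjusted p = 0.012). Epcam was called in the homozygous comparison (0.44, adjusted p = 0.0455). The part of any of these cells in the Malat1 values was not tested. The 8 fibroblast markers summed to 3314 and 3017 CPM in G164 tumors against 1602 and 1850 in G144 tumors, and to 2373 and 1445 in G174 tumors against 2273 and 1689 in G184 tumors. Neat1 and the fibroblast sum were both lower in tumor 6 than in tumor 3 of G164, in tumor 6 than in tumor 1 of G174 and in tumor 9 than in tumor 6 of G184, and went opposite ways between the tumors of G144. The part of these cells in the Neat1 values was not tested.

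**Figure D3:**
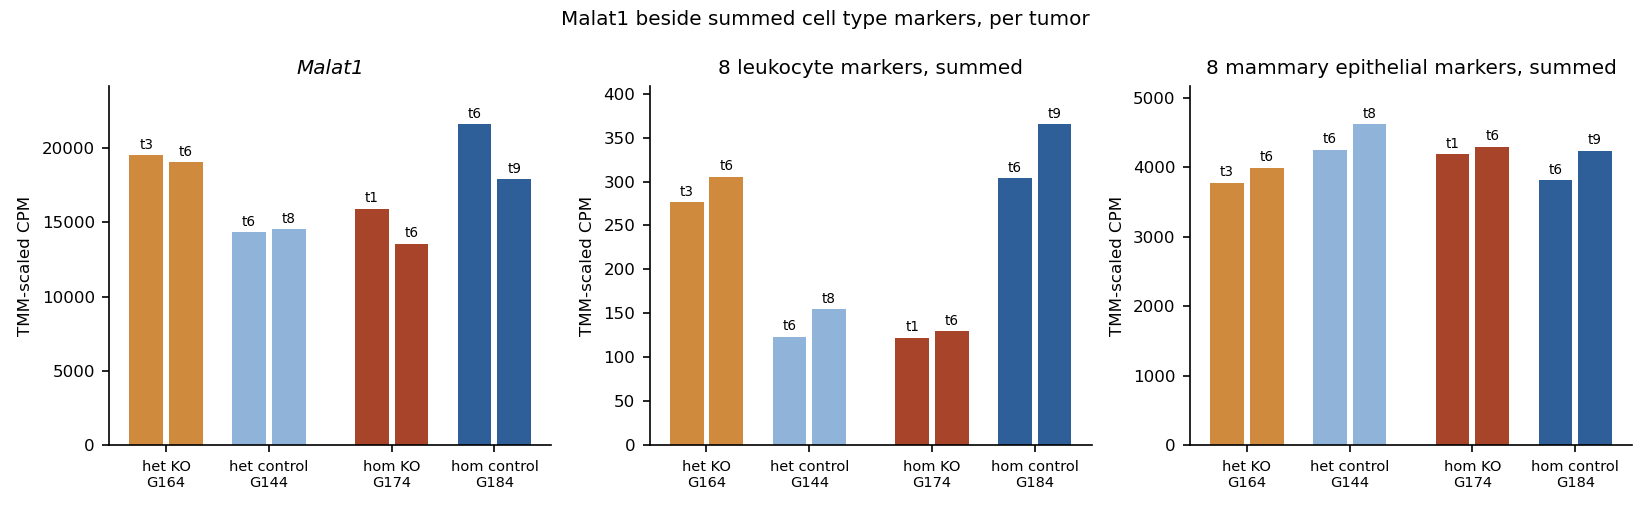
TMM-scaled CPM (y axes, from 0) of Malat1, of 8 leukocyte markers summed and of 8 mammary epithelial markers summed, per tumor, with the tumor number over each bar. The leukocyte sum is 277 to 365 CPM in G164 and G184 tumors and 122 to 155 CPM in G174 and G144 tumors, while the epithelial sum spans 3778 to 4617 CPM.

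The genes whose log2 CPM followed each member most closely over the 8 tumors were looked up among 12138 genes that averaged 5 CPM or more and had counts in every tumor. For Malat1 they were B4galnt1, which encodes a ganglioside synthase (Pearson's r = 0.98), 5330406M23Rik (r = 0.97) and Phf21a, which encodes a histone reader (r = 0.97). For Rn7sk they were Brk1, which encodes a subunit of the WAVE complex (r = 0.97), Rac1, which encodes a small GTPase (r = 0.97), and Nudt18 (r = 0.96). For Neat1 they were Gm37204 (r = 0.97), Slit2 (r = 0.92) and Gm46218 (r = 0.92), and for Rpph1 they were Chka (r = 0.94), Eri3 (r = 0.94) and Tex9 (r = 0.93). Genes with r above 0.9 numbered 108 for Malat1, 17 for Rn7sk, 14 for Rpph1 and 7 for Neat1. With 8 tumors of 4 mice these likenesses are a description.

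Rpph1 has relatives in the genome, and their counts split the mice. Rprl2 and Rprl3, RNase P RNA-like genes, align to Rpph1 with 77.2% and 77.5% identical positions, and the longest run shared by Rpph1 and Rprl3 is 37 bases. Rprl3 (chromosome 8, 3803069 to 3803358, minus strand) had 3939 and 3928 counts in G164 tumors against 36 and 20 in G144 tumors, and 73 and 95 in G174 tumors against 5272 and 6487 in G184 tumors. It rose in the heterozygous pair (log2 change 7.23 ± 0.29 SE, adjusted p = 0.000273) and fell in the homozygous pair (-6.10 ± 0.26 SE, adjusted p = 0.000295), and the controls differed too (7.57 ± 0.29 SE, adjusted p = 0.000212).

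Rprl2 (chromosome 3, 22251374 to 22251663, plus strand) showed the same split at lower counts, 240 and 261 in G164 tumors against 0 and 1 in G144 tumors, and 3 and 7 in G174 tumors against 312 and 215 in G184 tumors (adjusted p = 0.00354 and 0.00213). Ccnb1ip1, the gene that shares most of Rpph1's bases, had 27 and 42 counts in G164 tumors against 0 and 1 in G144 tumors, and 1 and 0 in G174 tumors against 28 and 38 in G184 tumors (adjusted p = 0.0257 and 0.00999). Rpph1 ran the other way, low in G164 and high in G174. Because reads on shared bases are set aside, the Rpph1 values are uncertain, and the part of Ccnb1ip1 in them was not tested. Whether any reads of Rprl2 or Rprl3 were counted to Rpph1 was not tested either.

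**Figure D4:**
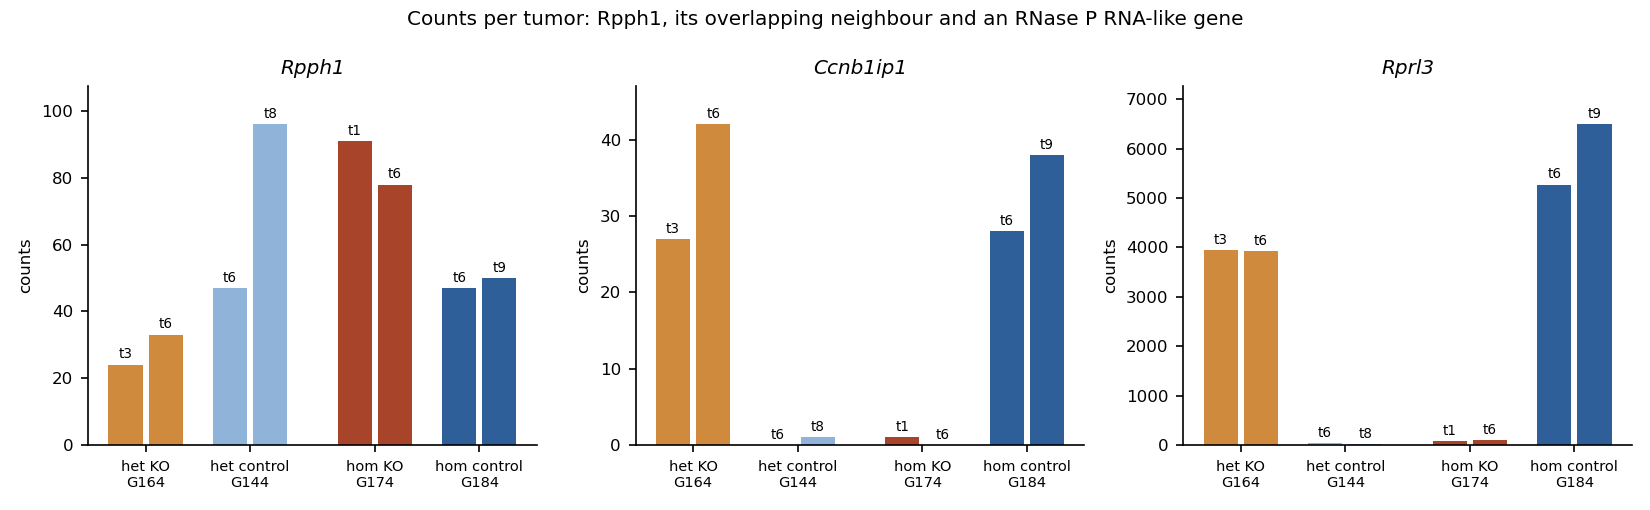
Counts (y axes, from 0, on different scales) of Rpph1, of Ccnb1ip1, which overlaps it on the same strand, and of Rprl3, an RNase P RNA-like gene, per tumor with the tumor number over each bar. Rprl3 has 3928 to 6487 counts in G164 and G184 and 20 to 95 in G174 and G144, and Ccnb1ip1 splits the mice in the same way, whereas Rpph1 is lowest in G164 at 24 and 33 counts.

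The other structured small RNAs set a frame for these values. Of 14 such genes, 13 were tested, and Rprl2 and Rprl3 were the only ones called in a KO comparison (2 rose and 0 fell in the heterozygous pair, 0 rose and 2 fell in the homozygous pair). Over all genes, 4.01% and 13.1% were called in these 2 pairs. The list medians were log2 changes of -0.02 and -0.07, against medians of 0.02 and -0.00 over all genes. In the difference between pairs, 2 of the 13 were called higher and 2 lower, against 25.1% of all genes called. Of 18 other long noncoding RNAs 17 were tested. Pvt1, a neighbour of Myc, was the only one of them called in a KO comparison, with 18.0 and 18.8 CPM in G174 tumors against 8.21 and 9.72 CPM in G184 tumors (log2 change 1.04 ± 0.17 SE, adjusted p = 0.0135). The controls differed in Pvt1 too, with G184 below G144 (log2 change -0.71 ± 0.17 SE, adjusted p = 0.039, edgeR), as 12.6% of all genes did in either direction. Of the 17 long noncoding RNAs, 1 was called higher and 1 lower in the difference between pairs, again against 25.1% of all genes called.

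Genes for proteins of the bodies that hold Neat1 and Malat1 are read against the 4.01% and 13.1% of all genes called in the heterozygous and the homozygous pair, and the 25.1% called in the difference between pairs. An unadjusted p under 0.05 was found for 5607 of all 22187 genes in the heterozygous pair. Of 16 paraspeckle protein genes, edgeR called 0 in the heterozygous pair (median log2 change -0.13, 3 with an unadjusted p under 0.05), and 1 rose in the homozygous pair (median 0.08). That gene was Taf15, an RNA-binding protein of the FET family, with 96.5 and 101 CPM in G174 tumors against 55.2 and 67.1 CPM in G184 tumors (log2 change 0.69 ± 0.11 SE, adjusted p = 0.0133). Of 16 nuclear speckle genes, edgeR called 0 in the heterozygous pair (median -0.22, 6 with an unadjusted p under 0.05) and 1 rose in the homozygous pair (median 0.23). It was Prpf8, the core protein of the spliceosome, with 584 and 735 CPM in G174 tumors against 420 and 421 CPM in G184 tumors (log2 change 0.65 ± 0.13 SE, adjusted p = 0.0248). In the difference between pairs, 3 of the 16 paraspeckle genes and 6 of the 16 nuclear speckle genes were called, all with the higher value in the homozygous pair. Between the controls, 2 paraspeckle genes and 1 nuclear speckle gene were lower in G184 than in G144 and 0 were higher, against 12.6% of all genes called. Taf15 was among them, with 88.6 and 90 CPM in G144 tumors (log2 change -0.55 ± 0.11 SE, adjusted p = 0.026, edgeR). Sfpq and Nono, on which paraspeckles depend, had log2 changes of -0.02 and -0.27 in the heterozygous pair and 0.04 and 0.07 in the homozygous pair, and neither was called.

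None of the 7 genes of the 7SK particle and P-TEFb passed in either KO comparison in edgeR (medians -0.03 and -0.04), against 4.01% and 13.1% of all genes. Of the 7, 1 and 2 had an unadjusted p under 0.05, against 5607 and 7017 of all 22187 genes. Ccnt2, a cyclin of P-TEFb and the most abundant of them, ran over 155 to 162 CPM in G164 tumors against 151 to 156 in G144 tumors, and averaged 144.1 ± 5.7 CPM in G174 tumors against 169.6 ± 6.13 CPM in G184 tumors (SD, n = 2 each). Larp7, which holds the end of 7SK RNA, had log2 changes of -0.49 (adjusted p = 0.0687) and 0.33 (adjusted p = 0.112). In the difference between pairs edgeR called 1 of the 7, Larp7 (0.83, adjusted p = 0.0166), against 25.1% of all genes. Larp7 also differed between the controls G184 and G144 (-0.49, adjusted p = 0.0425). Of 10 initiation factors for upstream promoters of RNA polymerase III, edgeR called 0 in either (medians 0.07 and -0.07, with 4 and 5 at an unadjusted p under 0.05), and Bdp1, a TFIIIB subunit, had log2 changes of 0.15 and -0.16. The shares of all genes are those given for the 7SK list. In the difference between pairs, 1 of the 10 was called higher and 2 were called lower.

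Genes for the proteins of RNase P and RNase MRP were also looked up. Of 11 protein genes of RNase P and RNase MRP, edgeR called 0 in the heterozygous pair, and 1 rose in the homozygous pair (median 0.22). The shares of all genes called were 4.01% and 13.1%. In the heterozygous pair 0 of 11 had a positive log2 change (median -0.39, against 0.02 over all genes). There 5 of the 11 had an unadjusted p under 0.05, against 5607 of all 22187 genes. In the difference between pairs, 2 were higher and 0 lower, against 25.1% of all genes called. Pop1, the large subunit common to both enzymes, had 15.8 to 20.8 CPM in G174 tumors against 11.3 to 12.3 CPM in G184 tumors (log2 change 0.64 ± 0.16 SE, adjusted p = 0.0439). Of 11 telomerase genes, 3 rose and 1 fell in the homozygous pair (median 0.51), and 1 rose in the heterozygous pair (median -0.37), against 13.1% and 4.01% of all genes called. In the difference between pairs, 7 telomerase genes were higher and 1 lower, against 25.1% of all genes called. Nhp2, a protein of the H/ACA particle that binds Terc, had 56.3 to 73.4 CPM in G174 tumors against 28.6 to 37.3 CPM in G184 tumors (log2 change 0.98 ± 0.17 SE, adjusted p = 0.016).

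Parn, a nuclease that trims the end of Terc, had 70.6 to 73.0 CPM in G174 tumors against 45.5 to 47.5 CPM in G184 tumors (log2 change 0.63 ± 0.10 SE, adjusted p = 0.0117). Tep1, a telomerase-associated protein also found in vaults, rose in the heterozygous pair (0.60 ± 0.11 SE, adjusted p = 0.039) and fell in the homozygous pair (-0.62 ± 0.11 SE, adjusted p = 0.0173). The third that rose in the homozygous pair was Wrap53, which carries telomerase to Cajal bodies (log2 change 0.52, adjusted p = 0.0483). Tert, the reverse transcriptase of telomerase, was not called, at 7.55 and 11.3 CPM in G164 tumors against 8.12 and 10.8 CPM in G144 tumors, and 11.4 and 16.7 CPM in G174 tumors against 7.30 and 8.42 CPM in G184 tumors. For each of these lists the controls G184 and G144 also differed, with 1 gene higher and 3 lower among the telomerase genes and 0 higher and 2 lower among those of RNase P and RNase MRP, against 12.6% of all genes called.

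**Figure D5:**
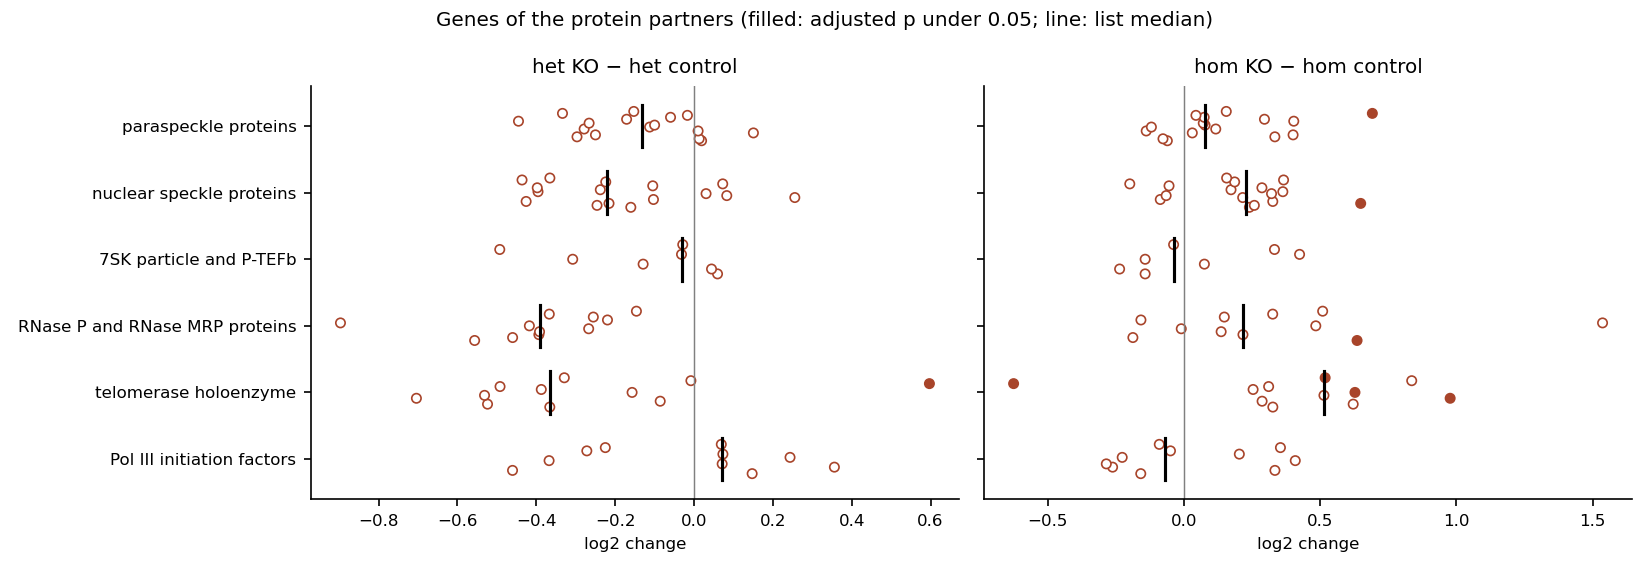
Log2 change (x axes) of each gene in 6 lists of protein partners, for the heterozygous pair and the homozygous pair, with filled points past the adjusted threshold and a line at the list median. The medians of the RNase P and telomerase lists are -0.39 and -0.37 in the heterozygous pair and 0.22 and 0.51 in the homozygous pair.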

How the data were processed

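Tumor RNA was sequenced as stranded, ribosome-depleted total RNA. Per the submitters' processing notes and the study's methods, the authors used bcl2fastq and STAR on GRCm38 (mm10), and deposited raw gene counts per lane from STAR. The release of the gene annotation and the programs' versions were not given in the sources used here. A master table with unstranded sums per mouse equals the lane files for the members and served for names only. The reverse-strand counts of 64 lane files were summed to 8 tumors. Unmapped, multiply mapped, ambiguous and no-feature reads were left out of library sizes, which kept 48.0 to 52.3% of reads.

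Genes were filtered with filterByExpr and tested with edgeR 4.0.16 (R 4.3.3; TMM, quasi-likelihood F-test, 1 coefficient per mouse, all 8 tumors), with Benjamini-Hochberg adjustment over all genes at 0.05. SE is the log2 change over the square root of F, and 95% intervals use 7.06 degrees of freedom (4 residual and 3.06 prior). The Cre comparison used sums per mouse. The script was tested on simulated data. DESeq2 1.42.0, other scalings, no filter, unstranded counts, single runs and leaving out tumors were alternatives. Overlaps and sequences came from GENCODE M21, in which 54487 of 55385 identifiers were found. Named genes were all members, at most 3 per list past the threshold with the largest change in a KO comparison (else the most abundant), and 3 genes most like each member; Sfpq, Nono, Larp7, Wrap53, Tert, Ccnb1ip1 and Gm37376 were added after their values were seen. Members and lists were chosen with earlier results of these data known.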

Additional observations from a re-analysis of the deposited data

Results flagged for a closer look

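The homozygous and heterozygous changes of Malat1 differed by -0.84 on the log2 scale, by a test of the difference between the 2 pairs of mice over all genes. G164 tumors had 19504 and 19031 CPM of Malat1 against 14337 and 14556 in G144 tumors, and G174 tumors had 15927 and 13563 against 21593 and 17917 in G184 tumors. The changes of Rpph1 differed by 2.12 on the log2 scale by the same test, on 24 to 96 counts per tumor. Since 25.1% of all genes differed between the pairs at the same threshold, and since each genotype was 1 mouse, the difference cannot be told apart from one between mice. Nor can it be told apart from one by age, because it sets the younger G174 and G144 against the older G164 and G184.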

How the results depend on the processing

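Of the members, DESeq2's Wald test called 1 (Malat1), where edgeR called 0, in the heterozygous pair, in the homozygous pair and between the controls. Of the 2 calls on the difference between pairs, 1 was left in run 1 alone and 1 in run 2 alone, and 0 to 1 on leaving out tumors, including both tumors with skeletal muscle transcripts together (0), a choice made after seeing the data. Directions turned where changes were small: the Rn7sk difference was 0.000503 with the 6 members left out of the library sizes, and the Malat1 change between Cre-positive and Cre-negative mice was 0.0166 with library size only and 0.0069 in run 2 alone. On leaving out tumors or mice, the log2 change ran over -0.31 to 0.64 for Neat1 in the homozygous pair, -0.82 to 0.15 for the Neat1 difference, -0.24 to 0.17 for the Rn7sk difference, -0.0406 to 0.40 for Neat1 between controls, -0.25 to 0.15 for Rn7sk between controls, -1.26 to 0.00881 for Rpph1 between controls, -0.23 to 0.24 for Malat1 by Cre and -0.93 to 0.43 for Rpph1 by Cre. The causes were not tested.

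Counts of all genes called moved with the setting. The heterozygous pair gave 890 genes, 2614 without a filter on low counts, 2817 with DESeq2, 1394 with only those mice, and 1 to 1087 on leaving out tumors. The homozygous pair gave 2917, 4575 without the filter, 4577 with DESeq2, 980 with only those mice, and 532 to 2442 on leaving out tumors. The difference gave 5579, and 1450 to 4817 on leaving out tumors. The controls gave 2787, 4471 with DESeq2, 1534 with only those mice, and 91 to 3164 on leaving out tumors. The Cre comparison gave 0, 4 without the filter, 22 with DESeq2, and 0 to 4 on leaving out mice. A lone tumor of a mouse was assumed to vary like those of the others. As shares of uniquely mapped reads, the abundant members were lower, such as 0.886% against 1.42% of gene counts for Malat1 in G144. No paired analysis was possible because the mice share at most 1 tumor number. Depth limits Rpph1, at 24 to 96 counts per tumor, and the zeros of Rmrp and Terc cannot be read as levels.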
